A study of Mus musculus with 6 samples.

Results

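Transcripts of mitosis, the division of the duplicated chromosomes between 2 daughter cells, were examined in pancreatic islets with and without the transcription factor Tead1 in beta cells. The set was a fixed list of 38 genes of the mitotic cyclins, kinases, kinetochore, spindle and cytokinesis machinery. A member was measured where a probe set of the Affymetrix mouse array carried its symbol alone, and the brightest such probe set by mean of all 6 arrays was used. This gave 37 of the 38 genes, out of 18193 genes measured in all, and Ccnb1 was the member not analysed here. Islets came from male C57Bl6 mice of 12 weeks. One group was Flox, the control genotype (3 arrays), and in the other, Tead1KO (3 arrays), Tead1 was deleted in beta cells only, so that other islet cells keep it. The labels name no Cre line, and any effect of one and the loss of Tead1 cannot be told apart. Because the labels do not tie an array to an animal, the spread behind each p-value may be technical.

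Entry into mitosis is driven by Cdk1 bound to cyclin A or B. Kinetochores then attach chromosomes to the spindle, a checkpoint delays anaphase until all are attached, and the anaphase promoting complex ends mitosis by marking cyclins and other proteins for destruction. Most of these genes are transcribed only in dividing cells, late in the cell cycle, through the MuvB complex together with B-Myb or Foxm1, and are held silent in resting cells by the DREAM complex. Beta cells of adult mice divide rarely, so these transcripts are scarce in islets, and every other cell type of the islet that divides adds to them.

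The promoters of such genes often carry CCAAT boxes, bound by the factor NF-Y, and the cell cycle genes homology region, with the letters TTTGAA or TTCGAA, through which MuvB binds. RefSeq windows of 300 bases (250 before to 50 after the gene's start, build GRCm38.p6) were at hand for 30 of the 37 measured members, in 32 windows. The unmatched members were Ccna2, Pbk, Foxm1, Aurkb, Tpx2, Kif20a and Smc4. Both strands were searched, and the 1 overlap among matches was of a pair of CCAAT matches in Ube2c. CCAAT occurred in 24 of the 32 windows (75%), against 37.4% of all 32851 RefSeq windows of that length. TTTGAA occurred in 24 of 32 (75%) against 17.9% of all windows, and TTCGAA in 3 of 32 (9.38%) against 1.56%. CCAAT together with TTTGAA or TTCGAA was found in 22 of 32 windows (68.8%) against 7.52% of all windows. GGAATG, the letters of the TEAD binding motif, was found in 3 of 32 windows (9.38%) against 14.7% of all. The 3 genes with it were Nusap1, Ube2c and Racgap1. A match is a description of letters and not of a bound site.

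The windows of 5 members, picked by their differences between the groups, are printed. They are Cdk1, Ccnb2 and Ube2c among the genes that read higher in Tead1KO, Nusap1 with the largest difference, and Racgap1 with the opposite one. Each runs 5′ to 3′ on the strand of its gene, and capitals mark CCAAT and TTTGAA on either strand.
Cdk1 (chr10:69352863-69353162, minus strand): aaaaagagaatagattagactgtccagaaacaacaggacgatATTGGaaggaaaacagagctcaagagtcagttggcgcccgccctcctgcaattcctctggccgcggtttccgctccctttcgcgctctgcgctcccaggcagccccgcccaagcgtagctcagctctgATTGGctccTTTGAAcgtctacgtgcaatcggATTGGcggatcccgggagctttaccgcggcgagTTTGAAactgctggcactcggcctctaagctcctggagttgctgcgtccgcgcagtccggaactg
Ccnb2 (chr9:70421505-70421804, minus strand): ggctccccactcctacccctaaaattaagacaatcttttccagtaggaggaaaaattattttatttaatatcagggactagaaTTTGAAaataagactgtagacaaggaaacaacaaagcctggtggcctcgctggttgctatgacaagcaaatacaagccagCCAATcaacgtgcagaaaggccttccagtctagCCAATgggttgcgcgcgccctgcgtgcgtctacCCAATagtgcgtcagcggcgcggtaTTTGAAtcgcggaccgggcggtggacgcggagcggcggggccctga
Ube2c (chr2:164769679-164769978, plus strand): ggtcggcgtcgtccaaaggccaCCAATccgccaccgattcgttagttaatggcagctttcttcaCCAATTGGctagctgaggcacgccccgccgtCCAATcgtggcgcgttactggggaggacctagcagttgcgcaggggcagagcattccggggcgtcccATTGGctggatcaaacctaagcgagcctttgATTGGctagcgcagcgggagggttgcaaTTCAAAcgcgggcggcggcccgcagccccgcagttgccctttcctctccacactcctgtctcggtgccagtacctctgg
Nusap1 (chr2:119618048-119618347, plus strand): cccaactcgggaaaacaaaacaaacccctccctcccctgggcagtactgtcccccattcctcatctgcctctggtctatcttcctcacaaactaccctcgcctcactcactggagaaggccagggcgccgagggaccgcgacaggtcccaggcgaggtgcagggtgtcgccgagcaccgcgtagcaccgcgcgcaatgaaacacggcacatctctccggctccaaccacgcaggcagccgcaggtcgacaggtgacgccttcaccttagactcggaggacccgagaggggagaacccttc
Racgap1 (chr15:99651607-99651906, minus strand): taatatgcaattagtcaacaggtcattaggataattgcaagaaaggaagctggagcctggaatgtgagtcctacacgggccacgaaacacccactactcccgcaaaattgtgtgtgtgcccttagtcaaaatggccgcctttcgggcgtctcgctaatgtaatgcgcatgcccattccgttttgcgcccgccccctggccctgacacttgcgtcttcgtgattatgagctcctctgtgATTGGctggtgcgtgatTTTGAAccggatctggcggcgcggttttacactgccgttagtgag

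The first base of a match is given relative to the gene's start, negative before it. Cdk1 had CCAAT at -208, -80 and -48 and TTTGAA at -71 and -15. In Ccnb2 the boxes stood at -87, -54 and -21, with TTTGAA at -167 and 5. Ube2c held 6 CCAAT matches between -228 and -57, TTTGAA at -29 and GGAATG at -104. Racgap1 had the same pair of elements, CCAAT at -12 and TTTGAA at 6, and GGAATG at -192 and -78. Nusap1 had neither CCAAT nor TTTGAA nor TTCGAA in its window, and GGAATG at -196. The log2 difference between Tead1KO and Flox had a median of 0.44 in the 20 members with CCAAT and TTTGAA or TTCGAA in 1 window (range -0.73 to 0.81). The 5 members with neither (Birc5, Melk, Nuf2, Nusap1 and Tacc3) had a median of 0.32 (range 0.05 to 1.02). These ranges overlapped.

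All values below are log2 probe set signals, 1 unit being a doubling, and all differences are Tead1KO minus Flox. The arrays differed in technical measures. Hybridization controls, bacterial transcripts spiked into every sample, read 11.89, 10.96 and 10.60 in Flox replicates 1 to 3 and 12.09, 10.87 and 13.23 in the Tead1KO arrays in the same order. Tead1KO replicate 3 also had the narrowest interquartile range (2.66, against 2.99 to 3.32 for the others) and the highest 18S rRNA signal (12.90, against 11.08 to 12.02). Where leaving out 1 array moved a member above background by over 1.5 times or turned its sign, the value without it is given with its role. Tead1 itself gave 7.22, 6.99 and 7.40 on the Flox arrays (mean 7.20 ± 0.21, SD, n = 3) and 6.72, 7.49 and 5.95 on the Tead1KO arrays (6.72 ± 0.77), a difference of -0.49 (limma adjusted p = 0.774). The array labelled Tead1KO replicate 2 had the highest Tead1 signal of all 6, where its label would call for a lower one. Other islet cells keep Tead1 and add to this signal, so a high value need not go against the label. The labels do not say where the deletion lies relative to the probes, so whether this signal checks them is not known, and Tead1KO below means the arrays so labelled. Of the 8 measured beta cell markers, 8 read above background on every array, Ins2 at 15.69 in both groups. Background was set by 27 probe sets for bacterial transcripts that read between 2.87 and 4.70.

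Most mitosis genes read higher in Tead1KO islets, by less than 2-fold for all but Nusap1, and none passed the test over all genes. Relative to the Flox mean, the 37 members averaged 0.12, -0.01 and -0.11 on the Flox arrays. On the Tead1KO arrays they averaged 0.47, 0.44 and 0.13, with replicate 3 close to Flox replicate 1. Of the 37 members, 0 changed at a limma adjusted p under 0.05, where 0.517% of all genes did. At an unadjusted p under 0.05, 9 members were higher, against 3.08% of all genes, and 1 was lower, against 4.33% (7.41% of all genes in either direction). With single arrays left out, the 9 became 3 to 18, and the share over all genes moved too. It was 4 without Flox replicate 2 (1.9% of all genes), 3 without Flox replicate 3 (1.72%), 4 without Tead1KO replicate 1 (2.12%) and 18 without Tead1KO replicate 3 (4.4%). Without Tead1KO replicate 2 it stayed at 9 while the share over all genes reached 9.45%. Of the 37, 35 had a difference above 0, as had 48.9% of all genes (34 members and 38.2% of all genes with each array centred on its median). The median difference was 0.36 over the members, with quartiles of 0.22 and 0.49, and -0.0074 over all genes. The groups did not overlap for 8 members higher in Tead1KO (5.8% of all genes) and 1 lower (7.27%), 13.1% of all genes in either direction. In whole islets, a change in the share of dividing cells and a change of transcript in each dividing cell cannot be told apart.

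The members were separated by signal. In 31 both groups lay above background, with a median difference of 0.36, and 29 of the 31 were above 0, where 41.7% of the 14011 genes above background in both groups were. Another 5 (Melk, Nuf2, Bub1, Aurkb and Ect2) lay within background in both groups, with differences of 0.05 to 0.42 and a median of 0.17. No level was resolved for these 5. Kif2c lay within background in Flox and above it in Tead1KO.

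**Figure D1:**
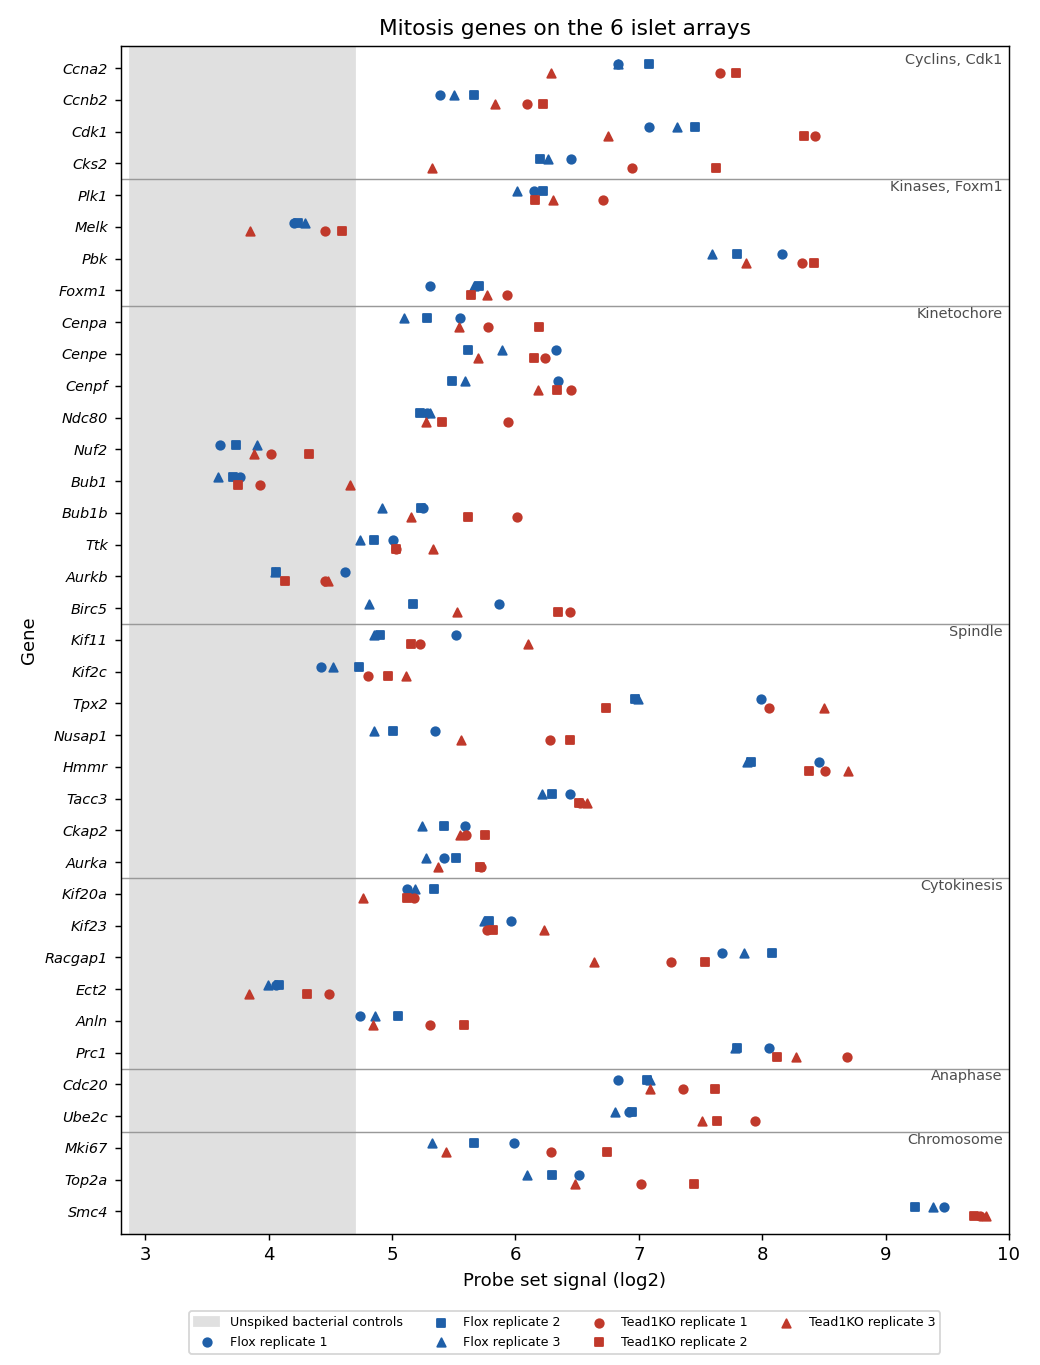
Signal (log2, x axis) of the 37 measured mitosis genes (y axis, ordered by role) on each array, with Flox in blue, Tead1KO in red, the symbol giving the replicate and the grey band the unspiked bacterial controls (2.87 to 4.70). Tead1KO replicates 1 and 2 lie above the 3 Flox arrays for 25 of 37 genes, and Tead1KO replicate 3 often does not; Racgap1 is lower on all 3 Tead1KO arrays.

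Among cyclins, Cdk1 and its partner, all 4 measured genes read above every Flox array in Tead1KO replicates 1 and 2, and only Ccnb2 did so in replicate 3 as well. Ccnb2, cyclin B2, read 5.39, 5.67 and 5.50 in Flox replicates 1 to 3 and 6.09, 6.22 and 5.83 in Tead1KO replicates 1 to 3 (log2 difference 0.53, SE 0.17, limma adjusted p = 0.402). Cdk1, the kinase that triggers mitosis, read 7.08, 7.46 and 7.31 in Flox and 8.43, 8.34 and 6.75 in Tead1KO (log2 difference 0.56, SE 0.42, limma adjusted p = 0.775). Its Tead1KO replicate 3 was the lowest of the 6 arrays, while the other Tead1KO arrays were the highest. Ccna2, cyclin A2, which acts in S phase and at mitotic entry, read 6.83, 7.08 and 6.83 in Flox and 7.66, 7.78 and 6.29 in Tead1KO (log2 difference 0.33, SE 0.37, limma adjusted p = 0.826). Cks2, a small subunit that binds cyclin-dependent kinases, read 6.45, 6.20 and 6.27 in Flox and 6.94, 7.63 and 5.33 in Tead1KO (log2 difference 0.33, SE 0.51, limma adjusted p = 0.869). In both, as in Cdk1, Tead1KO replicate 3 was lowest of all arrays. The 95% interval of the Cks2 difference ran from -0.84 to 1.49.

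Without Tead1KO replicate 3, the differences of this group were larger and their errors smaller, with only 2 arrays left in that group. Cdk1 then differed by 1.10 (SE 0.16, limma adjusted p = 0.0314). This passed the test, as did 0.973% of all genes in that fit. Ccna2 differed by 0.81 (adjusted p = 0.0794), Cks2 by 0.98 (adjusted p = 0.136) and Ccnb2 by 0.64 (adjusted p = 0.164), and these did not pass. Leaving out either of the other Tead1KO arrays moved 3 of the 4 the other way by over 1.5 times. Without Tead1KO replicate 1 and without replicate 2, Cdk1 differed by 0.26 and 0.31, Ccna2 by 0.12 and 0.06 and Cks2 by 0.17 and -0.17, and 0 members passed in those fits. Ccnb2 stayed between 0.44 and 0.64 whichever array was left out. With all arrays kept and the mean control signal as a covariate, the 4 differences were 1.07, 0.78, 0.97 and 0.67, and none passed.

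The other mitotic kinases and Foxm1 had differences of 0.05 to 0.35, and the groups overlapped for all 4. Plk1, the polo kinase of mitotic entry and spindle assembly, read 6.15, 6.23 and 6.01 in Flox and 6.71, 6.16 and 6.30 in Tead1KO (log2 difference 0.26, SE 0.19, limma adjusted p = 0.772). Pbk, a kinase active in mitosis, read 8.16, 7.80 and 7.59 in Flox and 8.32, 8.42 and 7.87 in Tead1KO (log2 difference 0.35, SE 0.22, limma adjusted p = 0.767). Foxm1, the forkhead factor that activates late cell cycle genes, read 5.31, 5.71 and 5.66 in Flox and 5.93, 5.64 and 5.77 in Tead1KO (log2 difference 0.22, SE 0.17, limma adjusted p = 0.775). The second Foxm1 probe set above background differed by 0.02. Plk1 differed by 0.10 without Tead1KO replicate 1, Foxm1 by 0.15 without that array and by 0.10 without Flox replicate 1, and Pbk by 0.22 without Flox replicate 3. Melk, a kinase of dividing cells, was within background on all 6 arrays, from 3.85 to 4.60, and its difference of 0.05 changed sign with quantile normalization (-0.03) and with median centring (-0.0069). Over the 8 cyclins, kinases and Foxm1 together, the median difference was 0.33, and it was 0.58 without Tead1KO replicate 3 and 0.16 without Tead1KO replicate 1.

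Kinetochore, centromere and checkpoint genes lay on the same side, 10 of 10 above 0 with a median of 0.37, and 0 passed the test. Birc5, survivin, a subunit of the chromosomal passenger complex that corrects faulty attachments, had the largest difference. It read 5.87, 5.17 and 4.81 in Flox and 6.44, 6.35 and 5.53 in Tead1KO (log2 difference 0.82, SE 0.33, limma adjusted p = 0.623), a 1.77-fold difference whose 95% interval ran from 0.07 to 1.58 on the log2 scale. Flox replicate 1 and Tead1KO replicate 3 overlapped. Without Tead1KO replicates 1, 2 and 3 in turn it differed by 0.66, 0.70 and 1.11. Cenpa, the histone variant that marks centromeres, read 5.55, 5.28 and 5.10 in Flox and 5.78, 6.19 and 5.55 in Tead1KO (log2 difference 0.53, SE 0.21, limma adjusted p = 0.613). These groups met at 5.55, the level of the highest Flox and the lowest Tead1KO array.

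Bub1b, the checkpoint protein BubR1 that holds back anaphase, read 5.25, 5.23 and 4.92 in Flox and 6.01, 5.61 and 5.15 in Tead1KO (log2 difference 0.46, SE 0.23, limma adjusted p = 0.715). Ttk, the checkpoint kinase Mps1, read 5.01, 4.85 and 4.74 in Flox and 5.03, 5.03 and 5.34 in Tead1KO (log2 difference 0.27, SE 0.15, limma adjusted p = 0.754), with groups that did not overlap but nearly met. Ndc80, a subunit of the complex by which kinetochores hold microtubules, read 5.28, 5.23 and 5.31 in Flox and 5.94, 5.41 and 5.28 in Tead1KO (log2 difference 0.27, SE 0.19, limma adjusted p = 0.772). Tead1KO replicate 1 was the highest array, and replicate 3 read at the Flox level. Cenpf, a large kinetochore protein, read 6.34, 5.49 and 5.59 in Flox and 6.45, 6.34 and 6.18 in Tead1KO (log2 difference 0.52, SE 0.24, limma adjusted p = 0.691). Cenpe, a kinesin that carries chromosomes to the spindle's middle, read 6.33, 5.61 and 5.89 in Flox and 6.24, 6.15 and 5.70 in Tead1KO (log2 difference 0.09, SE 0.23, limma adjusted p = 0.925). In both, Flox replicate 1 lay within or above the Tead1KO range. Without Tead1KO replicates 1, 2 and 3 in turn, Cenpe differed by -0.02, 0.03 and 0.25, and without Flox replicates 1 and 2 by 0.28 and -0.08. Ndc80 differed by 0.07, 0.34 and 0.40 without each Tead1KO array in turn and Bub1b by 0.25, 0.45 and 0.68, in both cases least without replicate 1. Cenpf was 0.79 without Flox replicate 1, and Ttk was 0.17 without Tead1KO replicate 3. With a gene's probe sets averaged, Cenpa differed by 0.26, Cenpf by 0.17, Bub1b by 0.22 and Ttk by 0.14. The further probe sets of Cenpa, Cenpf and Ttk lay within background in both groups, and those of Bub1b at least in Flox. Nuf2 (the partner of Ndc80), Bub1 (a checkpoint kinase) and Aurkb (the kinase of the passenger complex) were within background in both groups, between 3.59 and 4.66 on single arrays.

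Spindle genes had a median difference of 0.40 over 8 measured genes, 8 of them above 0, and again 0 passed. Nusap1, which bundles microtubules around chromosomes, had the largest difference of all members. It read 5.35, 5.01 and 4.85 in Flox and 6.28, 6.45 and 5.56 in Tead1KO (log2 difference 1.02, SE 0.26, limma adjusted p = 0.229), 2.03-fold higher with a 95% interval of 0.43 to 1.61 on the log2 scale. Every Tead1KO array lay above every Flox array. Without Tead1KO replicate 3 it differed by 1.29 (SE 0.18, limma adjusted p = 0.0274) and passed; with the control signal as a covariate it differed by 1.20 (adjusted p = 0.0648) and did not. It was 0.93 and 0.85 without Tead1KO replicates 1 and 2 and did not pass. Its second probe set lay within background and differed by 0.13, and the average of both by 0.58.

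In 5 other spindle genes Tead1KO replicate 3 was the highest array. Kif2c, a kinesin that takes microtubules apart, read 4.42, 4.73 and 4.52 in Flox and 4.81, 4.97 and 5.11 in Tead1KO (log2 difference 0.40, SE 0.15, limma adjusted p = 0.565). Tacc3, which stabilises microtubules at spindle poles, read 6.44, 6.30 and 6.22 in Flox and 6.52, 6.52 and 6.58 in Tead1KO (log2 difference 0.22, SE 0.15, limma adjusted p = 0.772). The groups did not overlap for either gene, and the gap was narrow. For Kif2c this came from 1 probe set, of a kind that can match several transcripts. Its other 3 probe sets differed by 0.03, 0.20 and -0.02, all within background or at its upper edge. Hmmr, a spindle protein and hyaluronan receptor, read 8.46, 7.91 and 7.87 in Flox and 8.51, 8.38 and 8.69 in Tead1KO (log2 difference 0.45, SE 0.21, limma adjusted p = 0.687). This was 1 of 5 Hmmr probe sets, and the others lay within background in both groups, with differences of 0.02 to 0.50. Kif11, the motor that pushes spindle poles apart, read 5.52, 4.90 and 4.85 in Flox and 5.23, 5.15 and 6.11 in Tead1KO (log2 difference 0.40, SE 0.29, limma adjusted p = 0.774). Tpx2, which nucleates spindle microtubules and activates Aurka, read 7.99, 6.97 and 6.99 in Flox and 8.06, 6.74 and 8.50 in Tead1KO (log2 difference 0.45, SE 0.47, limma adjusted p = 0.815).

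Tpx2 was high on Flox replicate 1 and Tead1KO replicates 1 and 3 and low on the other 3 arrays, the same split as in the hybridization controls (11.89, 12.09 and 13.23 against 10.60 to 10.96). The other bright Tpx2 probe set had this split too, with 8.07, 6.73 and 6.85 in Flox and 8.03, 6.70 and 8.76 in Tead1KO, while its 2 dimmer probe sets, within background, differed by 0.24 and 0.34. Hmmr, Kif11, Bub1 and Aurkb split the arrays in the same way, 5 of 37 members in all. This was no larger a share than the 14.3% of all genes that did. With the control signal as a covariate, Tpx2 differed by -0.26, Aurkb by -0.09, Kif11 by 0.0038, Bub1 by 0.13 and Hmmr by 0.25. Without Tead1KO replicates 1, 2 and 3 in turn, Tpx2 differed by 0.30, 0.96 and 0.08 and Kif11 by 0.54, 0.57 and 0.10; without Flox replicates 1, 2 and 3, Tpx2 differed by 0.79, 0.28 and 0.28 and Kif11 by 0.62, 0.31 and 0.28. The median of the 8 spindle genes was 0.23 with the control signal as a covariate, 0.28 without Tead1KO replicate 3 and 0.21 on averaging the probe sets of each gene, where Kif11 differed by 0.20, Kif2c by 0.15 and Tacc3 by 0.12. Some of these averages took in probe sets within background. Ckap2, a microtubule-stabilising protein, read 5.59, 5.42 and 5.24 in Flox and 5.60, 5.75 and 5.55 in Tead1KO (log2 difference 0.22, SE 0.15, limma adjusted p = 0.772). Aurka, the kinase that matures spindle poles, read 5.42, 5.52 and 5.28 in Flox and 5.72, 5.71 and 5.37 in Tead1KO (log2 difference 0.20, SE 0.16, limma adjusted p = 0.786). For both, Tead1KO replicates 1 and 2 lay above Flox and replicate 3 lay among the Flox arrays. Aurka differed by 0.31 without Tead1KO replicate 3, and Ckap2 by 0.13 without Flox replicate 3.

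**Figure D2:**
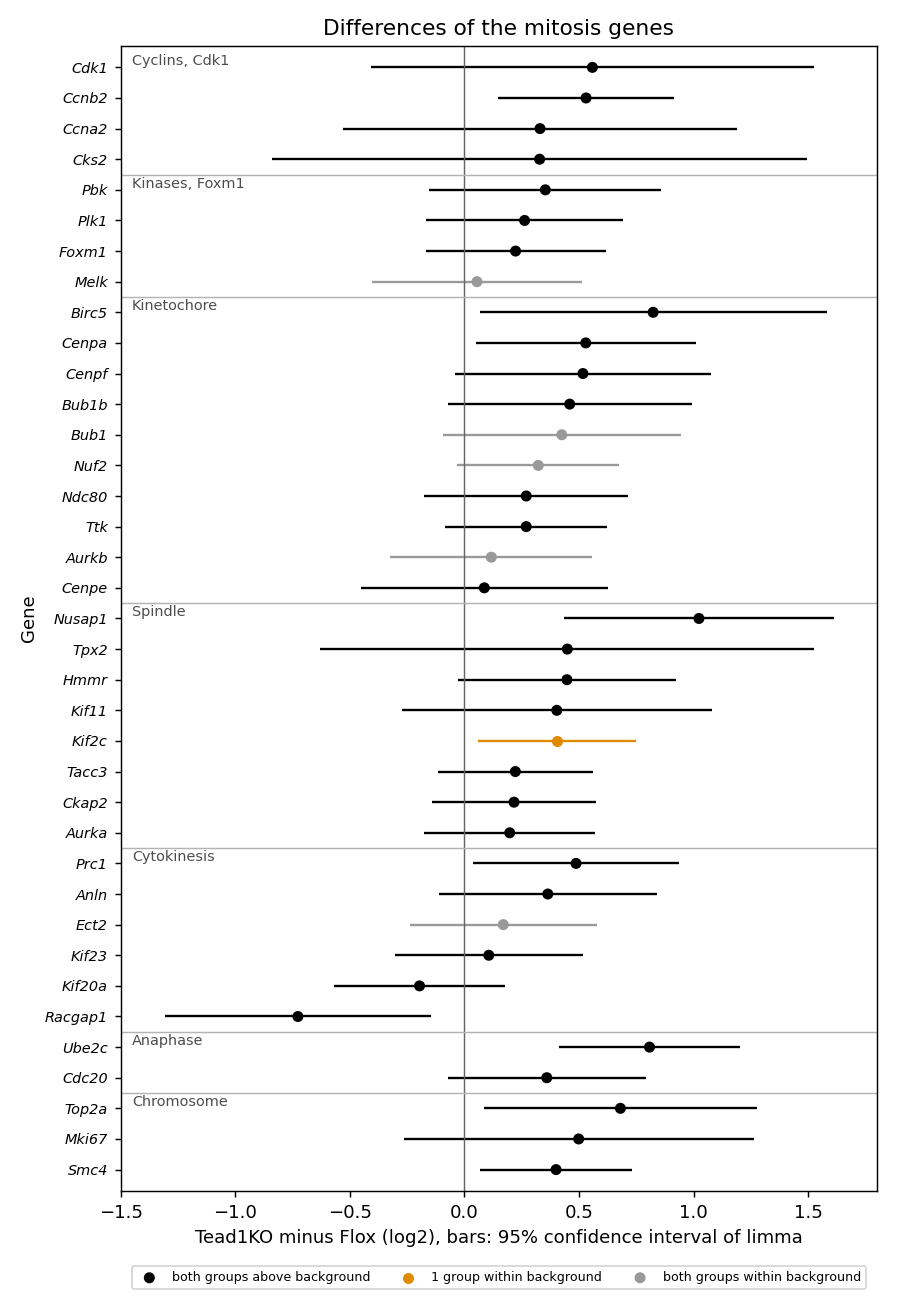
Difference Tead1KO minus Flox (log2, x axis) of each measured mitosis gene (y axis, sorted within its role); points are limma estimates from 3 arrays a group, bars their 95% confidence intervals, black both groups above background, orange 1 group within it and grey both within it. The points of 35 of 37 genes lie right of 0, Nusap1 at 1.02 farthest, and Racgap1 lies at -0.73.

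Genes of the central spindle and cytokinesis were the least uniform, with 4 of 6 above 0 and a median of 0.14. Racgap1, the GTPase-activating subunit of the centralspindlin complex, was lower on every Tead1KO array. It read 7.67, 8.08 and 7.86 in Flox and 7.26, 7.54 and 6.64 in Tead1KO (log2 difference -0.73, SE 0.25, limma adjusted p = 0.494), and the 95% interval ran from -1.30 to -0.15. Without Tead1KO replicate 3 it differed by -0.47 (adjusted p = 0.515), more than 1.5 times less. Its second probe set above background read 7.18, 7.67 and 7.37 in Flox and 6.89, 7.06 and 6.88 in Tead1KO, a difference of -0.46 with the same separation of the groups, and the average of its 3 probe sets, 1 of them within background, differed by -0.39. Kif23, the motor subunit of the same complex, read 5.97, 5.79 and 5.75 in Flox and 5.77, 5.82 and 6.24 in Tead1KO (log2 difference 0.11, SE 0.18, limma adjusted p = 0.876), and its groups overlapped. Its difference was 0.19, 0.17 and -0.04 without Tead1KO replicates 1, 2 and 3 in turn, 0.17 and 0.06 without Flox replicates 1 and 3, and -0.05 with the control signal as a covariate.

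Prc1, which bundles the microtubules of the central spindle, read 8.05, 7.79 and 7.78 in Flox and 8.69, 8.12 and 8.27 in Tead1KO (log2 difference 0.49, SE 0.20, limma adjusted p = 0.629). All its Tead1KO arrays were above Flox. Anln, anillin, a scaffold of the contractile ring, read 4.74, 5.04 and 4.86 in Flox and 5.31, 5.58 and 4.85 in Tead1KO (log2 difference 0.36, SE 0.21, limma adjusted p = 0.754). Kif20a, a kinesin needed for cytokinesis, read 5.12, 5.34 and 5.19 in Flox and 5.18, 5.12 and 4.77 in Tead1KO (log2 difference -0.20, SE 0.16, limma adjusted p = 0.786), lower on replicate 3 and level on the others, and -0.07 without replicate 3. Anln differed by 0.33, 0.20 and 0.56 without Tead1KO replicates 1, 2 and 3 in turn, and Prc1 by 0.32 without replicate 1. Ect2, the exchange factor that activates RhoA for cleavage, was within background, from 3.84 to 4.49.

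Both genes of anaphase promotion read higher in Tead1KO. Ube2c, the ubiquitin-conjugating enzyme of the anaphase promoting complex, had the smallest p of the members. Its single arrays read 6.92, 6.95 and 6.81 in Flox, a mean of 6.89 ± 0.08 (SD, n = 3), and 7.95, 7.63 and 7.52 in Tead1KO, a mean of 7.70 ± 0.22 (SD, n = 3) (log2 difference 0.81, SE 0.17, limma adjusted p = 0.144). Every Tead1KO array lay above every Flox array, and the 1.75-fold difference had a 95% interval of 0.41 to 1.20 on the log2 scale. Leaving out Tead1KO replicate 3 gave 0.90 (adjusted p = 0.0588), and the control signal as a covariate gave 0.82. Cdc20, the activator of that complex at anaphase, read 6.83, 7.07 and 7.09 in Flox and 7.36, 7.62 and 7.09 in Tead1KO (log2 difference 0.36, SE 0.19, limma adjusted p = 0.731). Replicate 3 lay within the Flox range, and the difference was 0.23 without Tead1KO replicate 2. The next Cdc20 probe set separated the groups fully, with 6.80, 6.67 and 6.43 in Flox and 7.55, 7.40 and 7.59 in Tead1KO (difference 0.88, limma adjusted p = 0.174 over all probe sets), and a dimmer one above background differed by 0.17.

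The 3 genes of chromosome structure also read higher. Top2a, the topoisomerase that untangles sister chromatids, read 6.52, 6.29 and 6.10 in Flox and 7.01, 7.45 and 6.48 in Tead1KO (log2 difference 0.68, SE 0.26, limma adjusted p = 0.582). Mki67, the proliferation marker that coats mitotic chromosomes, read 5.99, 5.66 and 5.33 in Flox and 6.29, 6.74 and 5.44 in Tead1KO (log2 difference 0.50, SE 0.33, limma adjusted p = 0.772). In both, replicate 3 lay among the Flox arrays, and without it the differences were 0.93 and 0.86 (adjusted p = 0.112 and 0.232). Without Tead1KO replicate 2 they were 0.45 and 0.21. On averaging its probe sets, of which all but the one used lay within background, Top2a differed by 0.23. Smc4, a condensin subunit that compacts chromosomes, read 9.47, 9.24 and 9.39 in Flox and 9.76, 9.72 and 9.81 in Tead1KO (log2 difference 0.40, SE 0.14, limma adjusted p = 0.539). Its Tead1KO arrays lay close together, all above Flox.

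The Tead1KO arrays differed among themselves, and not in the same way for every role. Tead1KO replicates 1 and 2 both lay above every Flox array in 25 of 37 members, where 11.4% of all genes had this order, and in 17 of the 25 replicate 3 did not follow (5.62% of all genes). Replicate 3 was the lowest of the Tead1KO arrays in 24 members (47.2% of all genes) and the highest of all 6 arrays in 9 (26% of all genes). Among the 31 members above background in both groups it was lowest in 21 and highest in 7. Of all genes above background in both groups, 56.2% had the first order and 19.4% the second. These counts were chosen after the values were seen. Relative to the Flox mean, the cyclins and Cdk1 averaged 0.78, 0.99 and -0.46 across the Tead1KO arrays 1 to 3, against -0.07, 0.10 and -0.03 in the Flox arrays. The spindle genes averaged 0.43, 0.30 and 0.53 against 0.24, -0.06 and -0.18. Replicate 3 was thus lowest of all arrays for the first group and highest for the second. The kinetochore genes averaged 0.50, 0.40 and 0.24 against 0.23, -0.09 and -0.14. Without replicate 3, 18 members were higher at an unadjusted p under 0.05 (4.4% of all genes in that fit), and 2, Cdk1 and Nusap1, passed the adjusted threshold. With the control signal as a covariate, 15 were higher (4.5% of all genes) and 0 of 37 passed, against 1.33% of all genes.

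**Figure D3:**
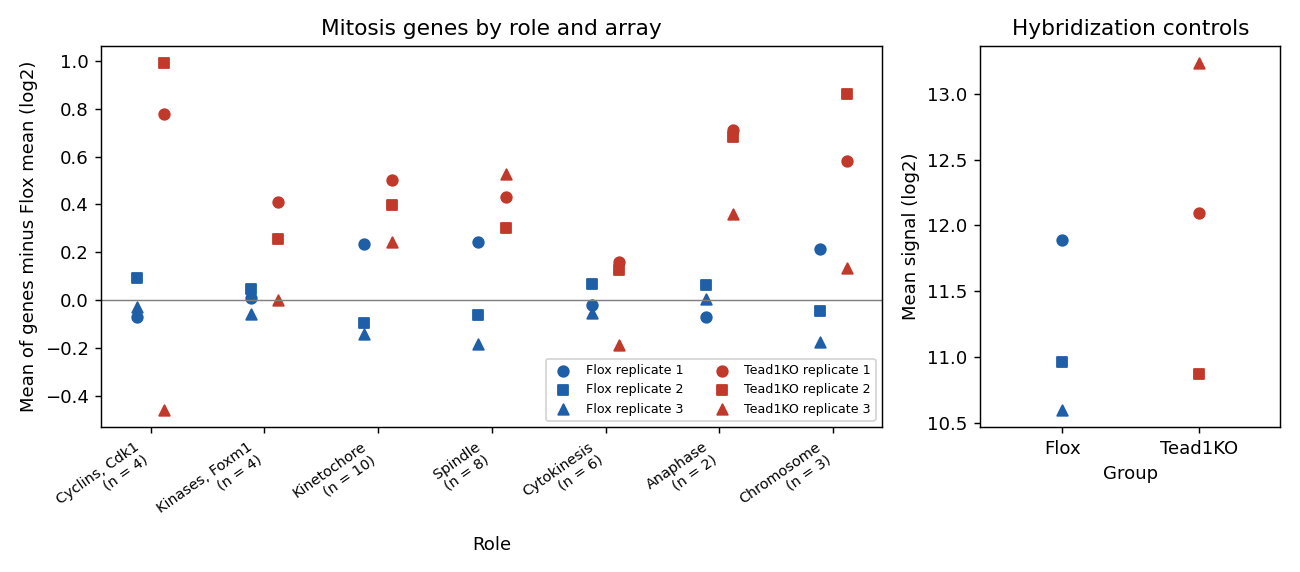
Left, mean of the measured genes of each role (x axis, with their number) on each array, minus the Flox mean (log2, y axis); right, mean signal of the hybridization controls by group (log2, axis not from 0). Flox is blue and Tead1KO red, with the symbol giving the replicate; Tead1KO replicate 3 lies lowest for cyclins and Cdk1 (-0.46) and highest for spindle genes (0.53), and has the highest controls (13.23).

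The members were read by 80 probe sets in all, 43 beside those used. Of these 43, 11 lay above background in both groups and 9 of the 11 had a difference above 0, with a median of 0.22. The exceptions were the second Racgap1 probe set and a Kif11 probe set at -0.05. Further probe sets within background numbered 29, of which 23 were above 0, with a median of 0.13. When all 45037 probe sets were tested separately, 0 of the 80 passed at a limma adjusted p under 0.05, against 0.18% of all probe sets. Probe sets of Ccna2 (0.22), Cks2 (0.46), Prc1 (0.26), Tacc3 (0.23) and Anln (0.15) had the sign of the brighter ones.

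Other genes of the mitotic machinery that are not in the set were described from lists chosen with earlier results known. Of 36 measured kinetochore and centromere genes, 0 changed over all genes and 30 were above 0, with a median of 0.26. Cdca8, borealin of the passenger complex, read 7.33, 6.95 and 6.72 in Flox and 8.48, 7.99 and 7.67 in Tead1KO (log2 difference 1.05, SE 0.25, limma adjusted p = 0.205). Kntc1, of the complex that recruits dynein to kinetochores, differed by 0.74 (adjusted p = 0.293) and Spc24, of the Ndc80 complex, by 0.60 (adjusted p = 0.463). The groups did not overlap for these 3. Of 30 spindle and cytokinesis genes, 0 changed and 27 were above 0, with a median of 0.16. The smallest p among them were those of Cit, citron kinase of the midbody (0.70, adjusted p = 0.399), Dlgap5, a spindle assembly factor (0.56, adjusted p = 0.455), and Ckap2l (0.51, adjusted p = 0.662).

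Of 12 genes of condensin and cohesin release, 0 changed and 9 were above 0 (median 0.12), with Espl1, separase, at 0.48, Ncaph, a condensin subunit, at 0.31 and Wapl, which opens cohesin, at -0.72. The 25 regulators of mitotic entry and exit, most of them made also outside mitosis, had a median of -0.08, with 8 above 0. Cdc25c, the phosphatase that activates Cdk1, differed by 0.47, and Anapc4 and Cdc27, subunits of the anaphase promoting complex, by -0.34 and -0.61. Of 13 genes of the DREAM and MuvB complexes, 8 were above 0 (median 0.07). Mybl2, B-Myb, read 4.51, 4.41 and 4.41 in Flox and 4.66, 4.63 and 4.76 in Tead1KO, within background in both groups, Tfdp2, a partner of E2F factors, differed by 0.47 and Tfdp1 by -0.50. Of 28 genes of S phase, in which DNA is copied, 23 were above 0 but by less, with a median of 0.09. Fen1, a flap nuclease, differed by 0.57, Mcm2, of the replicative helicase, by 0.32 and Pole, a replicative polymerase, by 0.34. The limma adjusted p of the genes named from these 4 lists lay between 0.445 and 0.775, and 0 genes of the lists passed. The counts at an unadjusted p under 0.05 were 3 kinetochore, 5 spindle, 1 condensin and 1 DREAM gene, all higher, and 0 for S phase and for entry and exit, where 3.08% of all genes were higher and 7.41% differed in either direction. As shares these were 8.33%, 16.7%, 8.33% and 7.69% of the lists. The differences between lists were not tested.

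**Figure D4:**
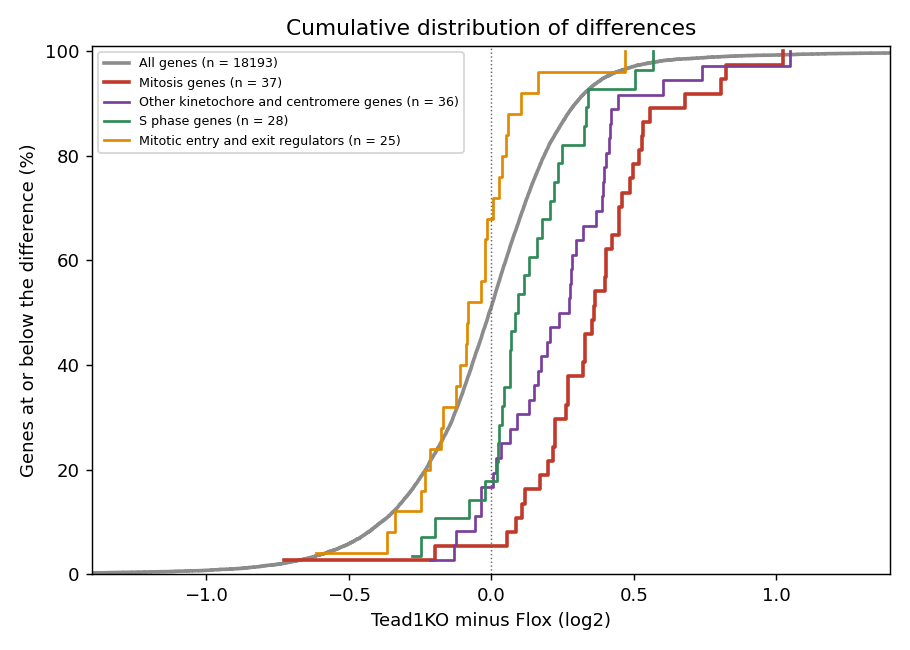
Cumulative share of genes (y axis, %) at or below a given difference Tead1KO minus Flox (log2, x axis) for all 18193 genes (grey), the 37 mitosis genes (red), 36 other kinetochore and centromere genes (purple), 28 S phase genes (green) and 25 regulators of mitotic entry and exit (orange). The red curve has the median farthest to the right, 0.36, against 0.26, 0.09 and -0.08 for the 3 lists and -0.0074 for all genes.

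Markers of other cells that could divide in the islet were read on the same arrays. Macrophage markers (9 measured of 9, Itgam within background) averaged 6.88, 7.29 and 7.28 in Flox replicates 1 to 3 and 7.29, 7.70 and 6.91 in Tead1KO replicates 1 to 3. Of the 9, 6 were above 0 and the list's median difference was 0.07. C1qa, a complement component of macrophages, differed by 1.08 (adjusted p = 0.518) and C1qb, of the same complex, by 0.08, while Csf1r, the receptor that sustains macrophages, differed by -0.25, Lyz2, a lysozyme, by -0.16 and Adgre1, a defining macrophage receptor, by 0.15. Stroma and pericyte markers (9 of 9) averaged 7.44, 7.51 and 7.34 in Flox and 7.62, 7.78 and 7.25 in Tead1KO. Of the 9, 7 were above 0, and the list's median difference was 0.15. Dcn, decorin, differed by 1.11 (limma adjusted p = 0.20) and Col1a2, a collagen chain, by 0.62 (limma adjusted p = 0.325). Acta2, smooth muscle actin, differed by -0.99 (limma adjusted p = 0.294) and Rgs5 by -0.62. Lum differed by 0.48, Pdgfrb by 0.20, Col1a1 by 0.15, Col3a1 by 0.06 and Pdgfra by 0.04. Endothelial markers (9 of 9) averaged 8.08, 8.09 and 8.16 and 8.21, 8.22 and 7.97. In all 3 lists Tead1KO replicate 2 was the highest array and replicate 3 was below replicates 1 and 2. Some mitosis members had this order, among them Ccna2, Cks2 and Mki67, and others, among them Cdk1, Birc5 and Ube2c, did not. How many of all genes had it was not counted. The mean over all genes had this order too, at 6.90, 6.92 and 6.91 in Flox and 6.92, 6.93 and 6.81 in Tead1KO. The part of these cells in the mitosis values was not tested.

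Beta cell markers (8 of 10 measured) averaged 12.86, 13.06 and 12.99 in Flox and 12.44, 12.74 and 12.25 in Tead1KO. This average was lower on every Tead1KO array. Of the 8, 7 were below 0, by unequal amounts. Ucn3 differed by -0.95 (limma adjusted p = 0.056), Nkx6-1 by -0.95 (limma adjusted p = 0.0637), Slc2a2 by -0.82 and Pdx1 by -0.66. Slc30a8 differed by -0.48, G6pc2 by -0.13, Ins2 by -0.005 and Iapp by 0.03. Markers of alpha, delta and pancreatic polypeptide cells (6 of 7) averaged 12.25, 12.30 and 12.31 and 12.34, 12.36 and 12.27, without separation. Acinar markers (6 of 10) averaged 10.88, 12.66 and 13.06 in Flox and 10.92, 12.83 and 12.21 in Tead1KO, low on replicate 1 of either group, and their part in the mitosis values was not tested. Duct markers (4 of 6, Cftr within background) averaged 6.71, 7.08 and 6.78 and 6.72, 6.79 and 6.53. Lymphocyte markers (6 of 8) averaged 5.02, 4.83 and 5.24 and 4.81, 4.85 and 4.76, with Cd3g within background in both groups. Of the 6, 3 were above 0, and Cd79a had the smallest p, with a difference of -0.85 (limma adjusted p = 0.0725). No gene of these marker lists passed the adjusted threshold.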

How the data were processed

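The authors deposited log2 probe set signals of 6 Affymetrix arrays. The submitters' processing notes name Affymetrix Expression Console. Its version and its correction and normalization settings were not given in the sources used here. That values are log2 follows from their range (2.75 to 15.7). No scanner files were used, and values were taken as deposited, with no pseudocount and no filter on dim signals. Of 45101 probe sets, 64 were controls, 34945 carried 1 platform gene symbol, 932 several and 9160 were unnamed here. The single-symbol probe set with the highest mean over 6 arrays stood for a gene (18193 genes).

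Groups were compared with limma 3.58.1 in R 4.3.3 (lmFit, eBayes with trend, no covariate), with Benjamini-Hochberg adjustment over all genes and a threshold of 0.05. SE is the moderated standard error. The procedure was checked on simulated data. The number of arrays limits the precision. Every measured member is named. Of other cell cycle lists, up to 3 members with the smallest p are named, and cell type markers were named without this rule. Members, roles and lists were chosen with earlier results of these data known. Alternatives were another normalization, centring, probe set choice, dim filter, variance model, threshold, the hybridization controls (18 probe sets) as a covariate, a replicate block and each array left out.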

Additional observations from a re-analysis of the deposited data

How the results depend on the processing

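The median difference of the 37 members was 0.36 and stayed between 0.25 and 0.38 under every alternative run. The count of members past the adjusted threshold was 0 in all settings, except 0 to 2 with single arrays left out (2 without Tead1KO replicate 3). The count of members higher at an unadjusted p under 0.05 was 9; it was 4 with median centring, 15 with the hybridization controls as a covariate and 3 to 18 with single arrays left out. The share of all genes so called moved with it, from 3.08% to 2.31%, 4.5% and 1.72% to 9.45%. The spindle median of 0.40 was 0.21 with a gene's probe sets averaged, those within background included. Over all genes, 94 changed; 152 with quantile normalization, 58 with median centring, 242 with the hybridization controls as a covariate and 12 to 303 with single arrays left out. Of 37 members, 31 kept their sign throughout. Melk was -0.032 with quantile normalization, -0.0069 with median centring and -0.093 to 0.28 with single arrays left out. With the hybridization controls as a covariate, Aurkb was -0.090, Tpx2 -0.26 and Kif23 -0.054. With single arrays left out, Cenpe was -0.079 to 0.28, Cks2 -0.17 to 0.98 and Kif23 -0.042 to 0.19. The cause of these changes was not tested. With the replicate block, 97 genes and 0 members changed and 10 members were higher at an unadjusted p under 0.05 (3.04% of all genes). The labels do not say that equal numbers pair the arrays. Same-numbered deviations correlated at 0.0556, 0.303 and -0.175 over genes. Those with different numbers correlated at -0.389 (Flox 1 with Tead1KO 2) to 0.33 (Flox 1 with Tead1KO 3). With 3 arrays a group there are too few to decide pairing. Members near background are uncertain, as are Pbk and Aurkb, which have only probe sets that can match several transcripts. The largest standard errors were those of brighter members, Cks2 (0.51), Tpx2 (0.47), Cdk1 (0.42) and Ccna2 (0.37).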
